A study of Homo sapiens with 40 samples.

Results

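The simple and mucosal keratins described here are KRT4, KRT7, KRT8, KRT13, KRT18, KRT19, KRT80, KRT81 and KRT86, 9 of the 60708 genes in the count tables. They were given as a list of symbols and matched to the Ensembl identifiers of the tables by GENCODE gene names. The list was chosen by looking at the expression values of these same libraries, and which comparison drew attention to each gene was not recorded. The fold-changes and adjusted p-values below are therefore descriptions of these genes and give no independent evidence that the family stands apart from other genes.

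Keratins are the intermediate filament proteins of epithelial cells, and each filament needs a type II keratin paired with a type I keratin. Simple epithelia and the luminal cells of the breast express KRT8 with KRT18, often together with KRT7 and KRT19, whereas the basal cells of the breast express KRT5 with KRT14. KRT4 and KRT13 form the pair of the upper layers of non-cornified mucosa such as the oesophagus. KRT80 is a type II keratin linked to desmosomes and to epithelial differentiation, and KRT81 and KRT86 are type II keratins of the hair shaft that are near-copies of each other and are also found in breast carcinoma cells. By this grouping 6 of the 9 are type II (KRT4, KRT7, KRT8, KRT80, KRT81 and KRT86) and 3 are type I (KRT13, KRT18 and KRT19).

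RNA-seq was analysed in 24 libraries that form 8 groups of 3. MI-spheres were MCF-10A cells, a normal-like and immortalised breast epithelial line. MII-spheres were MCF-10AneoT cells, the same line carrying oncogenic HRAS. Both were grown in ultra-low attachment plates and left unstimulated (MI Ctrl, MII Ctrl) or given TGFβ1 at 2.5 ng/ml for 16 h (MI TGFβ, MII TGFβ). The other 12 libraries came from MDA-MB-231, a triple-negative and mesenchymal-like breast carcinoma line, grown as monolayers with no added TGFβ stated in the labels. They were wild type (WT), labelled SLUG KO after CRISPR/Cas9 editing of SNAI2 with expansion of single-cell colonies, transfected with control siRNA (Csi), or transfected with siRNAs against SMAD2, SMAD3 and SMAD4 (siSMAD2/3/4). Line, growth format and medium cannot be told apart between spheres and MDA-MB-231 cells, and the 3 libraries of a group are labelled as biological replicates. What separates them, such as the culture or the day, was not given, and p-values measure the spread between these libraries.

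Total counts ran from 14124688 to 38406952 per library. The basal epithelial markers summed to between 1604 and 5279 CPM (counts scaled to a common library size with TMM factors, the scale of every level below unless stated) in the spheres and to between 281 and 723 CPM in the WT libraries, where KRT5 was at 0. HRAS lay between 190 and 227 CPM in MII-spheres and between 39.5 and 60.4 CPM in MI-spheres. SNAI2, which encodes SLUG, lay at 63.4, 57.3 and 64.6 CPM in the libraries labelled SLUG KO and at 30.1, 20 and 33.1 CPM in WT. The transcript is thus higher under the label that names its loss. The study's methods place the guide at the start of the first exon and state that the clones were checked by ddPCR and immunoblotting, measurements that were not analysed here, and an edit of the coding sequence need not lower the transcript. These counts therefore do not check the label, and every direction drawn from those libraries carries this limit. SMAD2 and SMAD4 fell in siSMAD2/3/4 (log2 fold-changes -1.92 and -1.72), and SMAD3 fell less (log2 fold-change -0.69). WT replicate 2 stood apart from the other WT libraries, with a correlation of log2 CPM of 0.966 and 0.963 with them against 0.987 between the other 2, with COL1A1 at 16 CPM against 2.85 and 2.01, and with VIM at 544 CPM against 841 and 924. Keratin levels, shares and fold-changes that involve WT are therefore given with and without it.

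Among the 9 genes 7 lie together on chromosome 12, and only KRT13 (chromosome 17, 41500981 to 41505705) and KRT19 (chromosome 17, 41523617 to 41528308) lie in the type I cluster on chromosome 17. KRT18 (chromosome 12, 52948871 to 52952906) is the type I gene that sits beside its partner KRT8 (chromosome 12, 52897187 to 52949954). All positions are those of GRCh38 in the count files. KRT8 and KRT18 are on opposite strands and share 525 exon bases, which is 17.1% of the exon bases of KRT18 and 7.6% of those of KRT8. Strand was not used in counting, and fragments overlapping exons of both genes were not counted for either. KRT13 shares 16.3% of its exon bases with an unnamed antisense lncRNA and KRT7 shares 7.1% with KRT7-AS, and without strand the reads of such pairs cannot be told apart.

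KRT81 (chromosome 12, 52285913 to 52291534) lies inside the span annotated for KRT86 (chromosome 12, 52249300 to 52309163) on the opposite strand. The first 8 coding exons of the 2 genes have equal lengths and are 97.2% identical over 1279 bases, and 42.7% of the 50-base windows in KRT81 exons and 34.3% of those in KRT86 exons occur elsewhere in the genome. The shares were 13.0% for KRT18, 12.9% for KRT8 and at most 0.4% for the other 5 genes. Windows of 50 bases follow the read length in the labels. The study's methods give a longer one, for which these shares were not computed. The 60-base stretch of the first coding exon below, which holds 0 differing bases, shows why reads of KRT81 and KRT86 can be hard to separate. It is given 5′ to 3′ in the sense of each gene from GRCh38, for KRT81 at chr12:52291346-52291405 on the minus strand and for KRT86 at chr12:52301977-52302036 on the plus strand.
KRT81: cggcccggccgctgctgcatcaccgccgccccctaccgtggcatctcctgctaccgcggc
KRT86: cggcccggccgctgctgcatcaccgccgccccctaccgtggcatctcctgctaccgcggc
Counts of KRT86 in particular are uncertain, since its group means were at most 4.36 RPKM (TMM-scaled CPM per kilobase of exon), where KRT81 averaged up to 1157 RPKM.

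Promoters of 2 of the 9 genes, KRT4 and KRT8, were matched in RefSeq (GRCh38.p14, 250 bases before to 50 bases after the annotated start). They are shown because they were the only matches, and they were not chosen by their response to TGFβ. Motifs were searched on both strands as CAGGTG (the E-box bound by SLUG), GTCTAGAC (the SMAD palindrome), CAGACA (a SMAD motif), TGANTCA (AP-1) and AACCNGTT (grainyhead), and no match overlapped another. The capitals mark the only match, a CAGACA that starts at base 114 of the KRT8 window (chr12:52926420-52926719, minus strand). This window lies inside the KRT8 gene model of the counts, which reaches 52949954, and so belongs to an internal start. Whether the counted KRT8 transcripts begin there was not tested. The KRT4 window (chr12:52814067-52814366, minus strand) held none of these letters. Among 35116 promoters of this length, 16.9% held CAGACA, 20.6% held CAGGTG, 7.71% held TGANTCA, 1.73% held AACCNGTT and 0.202% held the palindrome.
KRT4 promoter: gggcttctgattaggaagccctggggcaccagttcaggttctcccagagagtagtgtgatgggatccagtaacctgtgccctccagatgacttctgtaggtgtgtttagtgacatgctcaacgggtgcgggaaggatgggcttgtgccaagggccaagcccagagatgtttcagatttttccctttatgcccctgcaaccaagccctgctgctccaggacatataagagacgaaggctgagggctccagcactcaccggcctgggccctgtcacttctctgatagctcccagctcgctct
KRT8 promoter: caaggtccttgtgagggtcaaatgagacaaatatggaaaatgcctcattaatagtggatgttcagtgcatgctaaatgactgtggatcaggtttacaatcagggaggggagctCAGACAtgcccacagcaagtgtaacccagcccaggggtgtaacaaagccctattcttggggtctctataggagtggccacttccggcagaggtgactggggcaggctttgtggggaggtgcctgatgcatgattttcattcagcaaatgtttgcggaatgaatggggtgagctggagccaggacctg

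Taken per length, the leading keratin of the list differed between the lines. In MI Ctrl spheres KRT81 led with 1157 ± 36.7 RPKM (SD, n = 3), followed by KRT7 with 556 ± 10.3 RPKM and KRT13 with 309 ± 5.21 RPKM. In MII Ctrl spheres KRT7 led with 451 ± 21.6 RPKM, ahead of KRT81 with 398 ± 31.7 RPKM and KRT18 with 280 ± 3.22 RPKM. WT MDA-MB-231 cells had KRT18 at 147 ± 10.3 RPKM and KRT19 at 145 ± 54.6 RPKM as their highest, with KRT8 at 85.4 ± 12.7 RPKM and KRT7 at 78.5 ± 17.5 RPKM. Without WT replicate 2 the 4 means were 143, 113, 79 and 68.6 RPKM, in the same order. The plot of levels by library shows these orders together with the spread of each group.

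**Figure D1:**
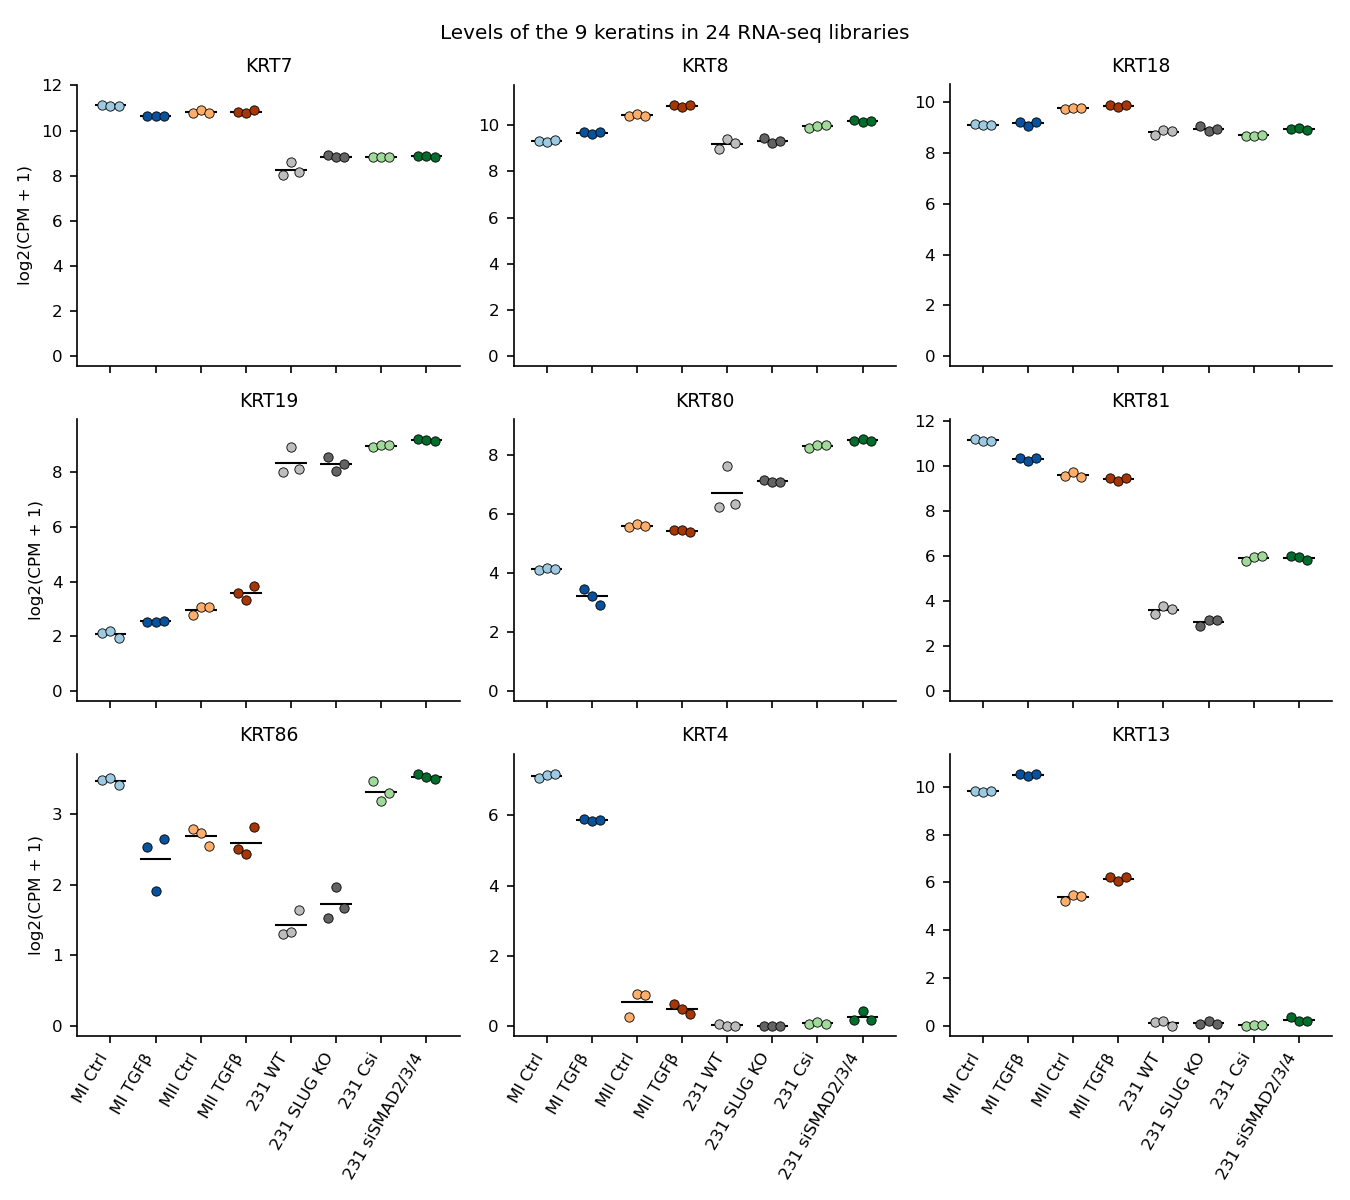
Level of each keratin in each RNA-seq library, as log2(CPM + 1) with TMM scaling, by group on the horizontal axis; points are the 3 libraries of a group in order of replicate number and black lines their means on this scale, and the vertical ranges differ between panels. KRT4 and KRT13 sit near 0 in the 4 MDA-MB-231 groups, KRT19 and KRT80 are highest there, and WT replicate 2 is the highest WT point for KRT7, KRT8, KRT18, KRT19, KRT80 and KRT81.

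The 9 genes together took 0.67% ± 0.018 of all counts in MI Ctrl, 0.514% ± 0.011 in MI TGFβ, 0.524% ± 0.016 in MII Ctrl and 0.517% ± 0.014 in MII TGFβ (SD, n = 3 each). In MDA-MB-231 cells their share was 0.202% ± 0.042 in WT, 0.213% ± 0.013 in the libraries labelled SLUG KO, 0.265% ± 0.0035 in Csi and 0.306% ± 0.005 in siSMAD2/3/4. The 46 other protein-coding keratins took 0.594% ± 0.016 in MI Ctrl and 0.00244% ± 0.00095 in WT. Without WT replicate 2 the WT shares were 0.178% for the 9 genes and 0.00299% for the others. Nearly all keratin counts of the carcinoma line thus fell on the 9 genes, whereas the spheres divided theirs between both sets. In bulk samples fewer cells of a type and less RNA per cell cannot be told apart.

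The first comparison asked what 16 h of TGFβ did in normal-like spheres. KRT4, KRT80 and KRT86 were DEGs with lower levels, where a DEG is a gene with an adjusted p under 0.05 and an absolute log2 fold-change above 1 (edgeR quasi-likelihood test, Benjamini-Hochberg adjustment over 16863 genes). They are 3 of 9 members, where 9.92% of all genes tested were lower DEGs and 3.64% higher ones, of which the list had 0. By adjusted p alone, 5 of the 9 fell and 3 rose, against 27.4% and 28.7% of all genes. Libraries of these groups did not overlap, in either direction, for 29.6% of all genes detected.

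KRT4, the type II keratin of mucosa, lay at 133, 141 and 144 CPM in MI Ctrl and at 58.6, 56.5 and 57.9 CPM in MI TGFβ. The groups did not overlap, and the log2 fold-change was -1.30 ± 0.0547 (SE, adjusted p = 2.83e-14). KRT13, its usual type I partner, moved the other way, from 913, 884 and 908 CPM to 1482, 1406 and 1474 CPM. That rise, also without overlap, was 0.66 ± 0.0489 on the log2 scale (adjusted p = 3.69e-10).

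KRT81 fell from 2308, 2168 and 2220 CPM to 1300, 1186 and 1299 CPM, a log2 fold-change of -0.85 ± 0.0515 (adjusted p = 1.22e-11). KRT80, the desmosome-linked keratin, fell from 16, 17 and 16.5 CPM to 9.97, 8.42 and 6.63 CPM (log2 fold-change -1.03 ± 0.119, adjusted p = 2.75e-07). Every stimulated library was below every control for both genes. KRT80 lay close to the fold required of a DEG and missed it without MI Ctrl replicate 2 (-0.99) or without MI TGFβ replicate 3 (-0.86). KRT86 fell from between 9.7 and 10.4 CPM to 4.82, 2.78 and 5.28 CPM, with stimulated replicate 2 the lowest (log2 fold-change -1.27 ± 0.158, adjusted p = 8.05e-07). With KRT81 and KRT86 summed as 1 gene, the count of lower DEGs was 2, since the sum is nearly all KRT81.

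Of the simple-epithelial keratins, KRT7 fell and KRT8 and KRT19 rose in MI-spheres. KRT7 went from 2269, 2207 and 2191 CPM to 1613, 1596 and 1586 CPM (log2 fold-change -0.51 ± 0.0504, adjusted p = 3.36e-08). KRT8 went from 626, 617 and 650 CPM to 822, 782 and 822 CPM (log2 fold-change 0.33 ± 0.0488, adjusted p = 9.16e-06). KRT19 stayed at a low level, with 3.32, 3.56 and 2.8 CPM before and 4.82, 4.74 and 4.95 CPM after (log2 fold-change 0.55 ± 0.158, adjusted p = 0.00563). KRT18, the partner of KRT8, overlapped between the groups, with 538 to 553 CPM in controls and 535 to 595 CPM after TGFβ (log2 fold-change 0.03 ± 0.0492, adjusted p = 0.569).

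The median log2 fold-change was -0.51 over the 9 genes and -0.02 over all genes tested. Among the 46 other keratins 14 were tested, with 5 higher and 4 lower DEGs, led by the stress keratin KRT6A (log2 fold-change 2.61) and the basal keratin KRT5 (2.39). Of 12 genes that link keratins to desmosomes, hemidesmosomes or other proteins, 11 were tested and 1 was a DEG, the desmosomal linker periplakin, PPL (log2 fold-change -1.05). Of 16 epithelial transcription factors 4 were lower DEGs, with KLF4 (-2.0), FOXA1 (-1.15) and ELF3 (-1.05) the most changed. The summed mesenchymal-like markers rose beside these, from between 145 and 156 CPM to between 480 and 500 CPM. The summed basal markers went from between 2960 and 3038 CPM to between 4934 and 5279 CPM, and the share of counts on mitochondrial genes from between 0.687% and 0.789% to between 0.423% and 0.572%. The part of these in the keratin changes was not tested.

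TGFβ in HRAS-transformed spheres was the subject of the second comparison. KRT8, KRT13 and KRT19 rose and KRT80 and KRT81 fell, all by less than the fold required of a DEG. Among the 8 members tested, the edgeR test found 0 DEGs, where 3.12% of 16396 genes were higher and 7.5% lower DEGs. DESeq2 also gave 0, while 6 members had an unadjusted p under 0.05 in edgeR. The share of all genes under that unadjusted p was not computed. By adjusted p alone 3 rose and 2 fell, against 29.9% of all genes rising and 27.6% falling. The share of all genes detected without overlap between the groups was 32.8%.

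KRT8 rose from 1340, 1427 and 1341 CPM in MII Ctrl to 1848, 1751 and 1881 CPM in MII TGFβ, with no overlap (log2 fold-change 0.39 ± 0.0326, adjusted p = 6.35e-15). KRT13 rose from 36.7, 42.9 and 42.5 CPM to 73.5, 64.9 and 73.9 CPM (log2 fold-change 0.76 ± 0.0611, adjusted p = 1.11e-15). KRT19 rose from 5.81, 7.33 and 7.39 CPM to 11, 9.07 and 13.5 CPM (log2 fold-change 0.66 ± 0.131, adjusted p = 2.3e-05). All 3 genes thus moved in the same direction as in MI-spheres, from other starting levels.

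KRT80 fell from between 46.3 and 49.1 CPM to between 40.7 and 42.7 CPM (log2 fold-change -0.20 ± 0.0597, adjusted p = 0.00306), a call that was lost when all 12 sphere libraries were fitted together (adjusted p = 0.0619). KRT81 fell from 748, 837 and 720 CPM to 704, 645 and 708 CPM (log2 fold-change -0.19 ± 0.0373, adjusted p = 1.88e-05). The gap between the lowest control and the highest stimulated library of KRT81 was small beside the spread of the controls. KRT7 overlapped between the groups (1730 to 1899 CPM and 1782 to 1899 CPM, adjusted p = 0.892), as did KRT86 (4.85 to 5.94 CPM and 4.44 to 6.07 CPM, adjusted p = 0.467). KRT18 went from 849, 863 and 868 CPM to 946, 890 and 927 CPM (log2 fold-change 0.07 ± 0.033, adjusted p = 0.0561 in edgeR and 0.049 in DESeq2). KRT4 was too low to test in MII-spheres, at 0.198 to 0.887 CPM in controls and 0.273 to 0.538 CPM after TGFβ, with 3 to 26 counts per library.

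The median over the 8 tested members was 0.03, and that over all genes -0.02, on the log2 scale. Of 14 other keratins tested, 7 were higher and 1 was a lower DEG, again led by KRT6A (log2 fold-change 4.18) and KRT5 (3.38). Among 11 keratin linkers tested 0 were DEGs by edgeR, with 5 higher and 2 lower by adjusted p alone. Beside these, the summed basal markers went from between 1604 and 1701 CPM to between 3332 and 3472 CPM and the mesenchymal-like markers from between 212 and 222 CPM to between 328 and 357 CPM. The mitochondrial share went from between 1.41% and 1.66% to between 1.02% and 1.18%. The part of these in the keratin changes was not tested.

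**Figure D2:**
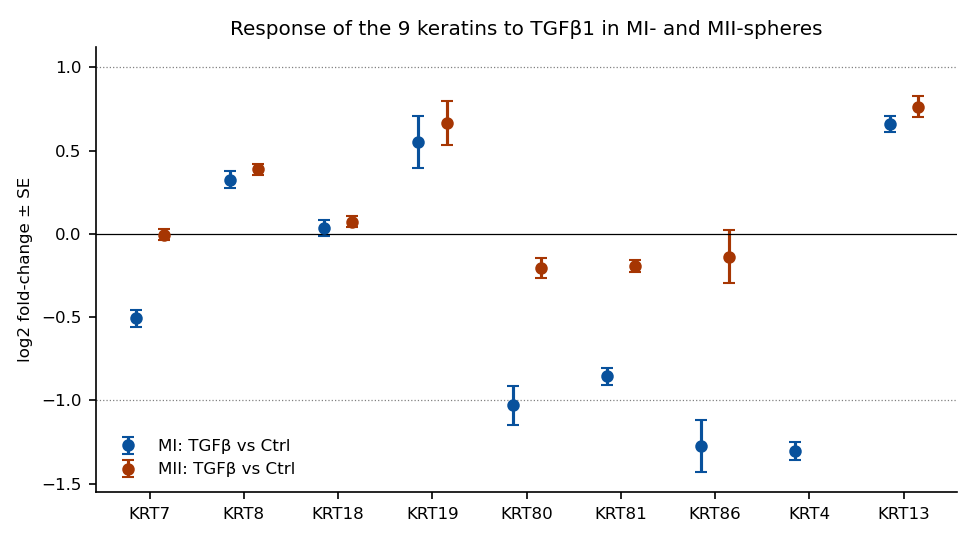
Response of each keratin to TGFβ in MI-spheres (blue) and MII-spheres (red), as log2 fold-change against the unstimulated spheres of the same line; points are edgeR estimates, error bars SEs, and dotted lines mark log2 fold-changes of -1 and 1. KRT8, KRT13 and KRT19 lie above 0 in both lines, whereas KRT7, KRT80, KRT81 and KRT86 lie further below 0 in MI than in MII; KRT4 was not tested in MII.

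Whether the response to TGFβ differed between the lines was tested as the interaction of line and treatment over all 12 sphere libraries. Of the 9 members KRT86 was a higher DEG, and KRT7, KRT80, KRT81 and KRT86 passed the adjusted p, all with a response in MII above that in MI. The shares over 18591 genes were 3.75% higher and 2.09% lower DEGs, and 12.6% higher and 9.75% lower by adjusted p alone. The differences in log2 fold-change, MII minus MI, were 0.51 ± 0.059 for KRT7 (adjusted p = 8.49e-09), 0.67 ± 0.0663 for KRT81 (adjusted p = 1.85e-10), 0.84 ± 0.125 for KRT80 (adjusted p = 1.54e-06) and 1.14 ± 0.23 for KRT86 (adjusted p = 0.000207).

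The other 5 members did not pass, with differences of 0.05 for KRT18 (adjusted p = 0.639), 0.07 for KRT8 (0.43), 0.12 for KRT13 (0.29), 0.13 for KRT19 (0.745) and 0.51 for KRT4 (0.458). The KRT4 difference has an SE of 0.43, since it rests on few counts in MII-spheres. The KRT86 DEG depended on single libraries: the count fell to 0 without MI TGFβ replicate 2 or without MII TGFβ replicate 3, and to 0 when KRT81 and KRT86 were summed.

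Unstimulated MII and MI spheres were compared as the line with and the line without oncogenic HRAS, and HRAS cannot be told apart from other differences between these lines. KRT8, KRT19 and KRT80 were higher DEGs in MII, and KRT13 and KRT81 were lower DEGs. KRT4 was called lower too, but it passed the filter on low counts only through the MI libraries, where it is high, and so had to differ. It is left out of the counts. The 3 higher and 2 lower of the other 8 stand beside 12.5% higher and 7.62% lower DEGs among 17862 genes. By adjusted p alone 4 of these 8 were higher and 4 lower, against 31.7% and 32.5% of all genes. The share of all genes detected without overlap between the groups was 36.9%.

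Of the genes counted, KRT13 of the mucosal pair was the most reduced, and KRT4 is described by its counts. KRT4 lay between 133 and 144 CPM in MI Ctrl and at 0.198, 0.887 and 0.827 CPM in MII Ctrl, a fitted log2 fold-change of -7.62 that rests on 44 counts in the 3 MII libraries together. KRT13 lay between 884 and 913 CPM in MI Ctrl and between 36.7 and 42.9 CPM in MII Ctrl, 21.9-fold lower (log2 fold-change -4.46 ± 0.0445, adjusted p = 1.39e-57). KRT81 was 2.89-fold lower in MII, with 720 to 837 CPM against 2168 to 2308 CPM (log2 fold-change -1.53 ± 0.0373, adjusted p = 3.09e-39). The groups did not overlap for KRT13 and KRT81.

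KRT8 lay between 1340 and 1427 CPM in MII against 617 to 650 CPM in MI, 2.18-fold higher (log2 fold-change 1.12 ± 0.0341, adjusted p = 1.31e-34). KRT18 was 1.58-fold higher, from 538 to 553 CPM in MI to 849 to 868 CPM in MII, below the fold required of a DEG (log2 fold-change 0.66 ± 0.0335, adjusted p = 1.96e-24). KRT80 was 2.89-fold higher, with 46.3, 49.1 and 47 CPM against 16, 17 and 16.5 CPM (log2 fold-change 1.53 ± 0.0649, adjusted p = 6.55e-28). For these 3 genes every MII library was above every MI library. KRT19 was 2.14-fold higher at a low level (log2 fold-change 1.10 ± 0.151, adjusted p = 7.07e-09). KRT7 (log2 fold-change -0.30 ± 0.0337) and KRT86 (-0.88 ± 0.12) fell without reaching the DEG fold.

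After TGFβ KRT8, KRT19 and KRT80 were again higher DEGs in MII and KRT13 a lower DEG, with shares of 12.2% higher and 7.55% lower among 15878 genes. KRT4 was called lower through the MI libraries alone, as before. By adjusted p alone 5 of the other 8 were higher and 2 lower, against 31.1% and 31.6% of all genes. KRT81 was still lower in MII, by 1.81-fold, which is below the DEG fold (log2 fold-change -0.85 ± 0.0477, adjusted p = 2.55e-13). KRT86 overlapped between the stimulated lines (log2 fold-change 0.27 ± 0.201, adjusted p = 0.246). KRT80 had the largest positive difference of the list, 5.17-fold, with 40.7 to 42.7 CPM in MII TGFβ against 6.63 to 9.97 CPM in MI TGFβ (log2 fold-change 2.37 ± 0.108, adjusted p = 5.97e-15). KRT7 was higher in MII after stimulation (log2 fold-change 0.22 ± 0.0471, adjusted p = 0.000293), the opposite of its difference before it. These comparisons share their libraries with the 2 TGFβ comparisons above.

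Among the other keratins the lines differed in both directions without stimulation, with 7 higher and 5 lower DEGs of 15 tested. Of these 12 DEGs, 1 had under 10 counts in every library of 1 group, so its call rests on the other group. KRT6B (log2 fold-change 4.10) and KRT14 (2.42) were higher in MII, and KRT6A (-4.87), KRT5 (-2.49) and KRT17 (-1.95) lower. Of the linkers SFN (-1.64) and desmoplakin, DSP (-1.20), were lower DEGs. Of the 16 epithelial transcription factors 3 were higher and 5 lower DEGs. SOX9 was the most raised (2.27) and the basal factor TP63 the most reduced (-6.42). TP63 lay under 1 CPM in each MII Ctrl library, so its fold-change rests on few counts there. Whether TP63 passed the low-count filter through MI Ctrl alone was not checked.

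KRT8 relative to KRT18 was described as the log2 ratio of counts per exon base, since the 2 proteins assemble with each other. It averaged -0.956 ± 0.036 in MI Ctrl, -0.663 ± 0.041 in MI TGFβ, -0.494 ± 0.050 in MII Ctrl and -0.177 ± 0.030 in MII TGFβ (SD, n = 3). Each of these 4 groups was apart from the next, so the ratio was higher with TGFβ in both lines and higher in MII than in MI. The ratio was 0.292 higher with TGFβ in MI and 0.317 higher in MII. In MDA-MB-231 cells it averaged -0.792 ± 0.122 in WT, -0.779 ± 0.014 in the libraries labelled SLUG KO, 0.106 ± 0.049 in Csi and 0.069 ± 0.058 in siSMAD2/3/4, and in WT it was -0.860 without replicate 2. The 4 sphere comparisons, the comparison of WT with MI Ctrl and both MDA-MB-231 comparisons were tested by exact two-sided permutation. The exact p was 0.1 for the first 5, the smallest that 3 against 3 libraries allow (0.14 adjusted over the 7), 0.9 for SLUG KO and 0.5 for siSMAD2/3/4. The level of the ratio depends on the exon models, since the KRT8 model of 6881 bases includes distant exons. The exon lengths cancel in its differences between groups, but the fragments counted still depend on these models.

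**Figure D3:**
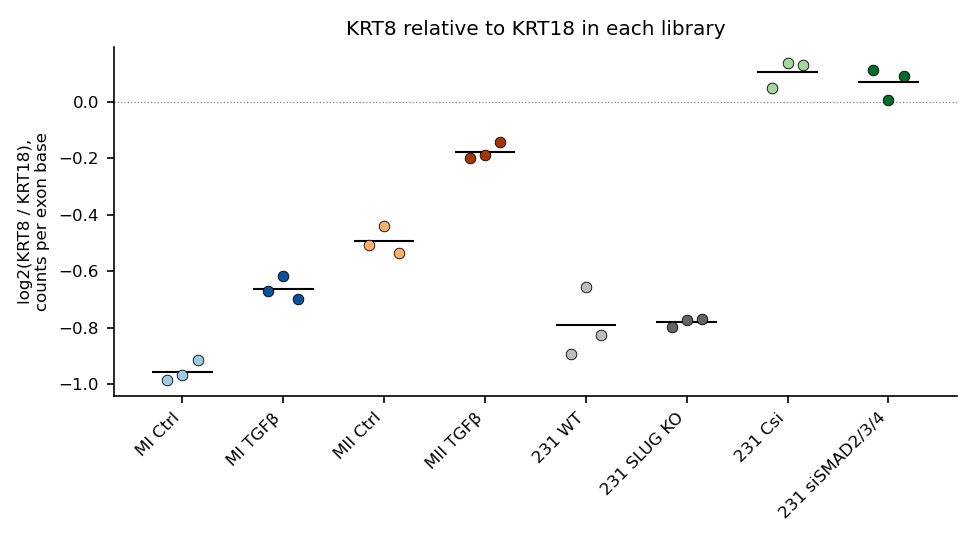
Level of KRT8 relative to KRT18 in each library, as the log2 ratio of counts per exon base; points are the 3 libraries of a group, black lines their means, and the dotted line marks equal levels. The ratio steps up from -0.956 in MI Ctrl to -0.177 in MII TGFβ, and the Csi and siSMAD2/3/4 libraries lie above 0.

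WT MDA-MB-231 cells were set against MI Ctrl spheres to place the list in a mesenchymal-like carcinoma line. KRT19 and KRT80 were higher DEGs and KRT7, KRT81 and KRT86 lower DEGs. KRT4 and KRT13 were called lower as well, but they passed the filter on low counts only through MI Ctrl and so had to differ, and they are described by their counts below. The 2 higher and 3 lower of the other 7 stand beside 23.4% higher and 21.1% lower DEGs among 18732 genes, and beside 28.1% and 25.9% by adjusted p alone, which called the same 5. KRT19 had 254, 484 and 275 CPM in WT against 2.8 to 3.56 CPM in MI Ctrl (log2 fold-change 6.74 ± 0.37, adjusted p = 1.21e-05). Without WT replicate 2 the difference was 6.33 (adjusted p = 4.27e-16).

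KRT80 had 74, 195 and 79.3 CPM in WT and 16 to 17 CPM in MI Ctrl, a log2 fold-change of 2.85 ± 0.416 (adjusted p = 0.000976) that became 2.19 without replicate 2 (adjusted p = 2e-12). KRT81 lay at 9.66, 12.7 and 11.5 CPM, 194-fold below MI Ctrl (log2 fold-change -7.60 ± 0.244, adjusted p = 2.77e-06), and without replicate 2 the log2 fold-change was -7.74. KRT7 was 6.95-fold lower (log2 fold-change -2.80 ± 0.229, adjusted p = 6.09e-05), with -3.04 without replicate 2. KRT86 was 5.83-fold lower (log2 fold-change -2.54 ± 0.237, adjusted p = 0.000112), with -2.51 without replicate 2. KRT8 overlapped between the groups, with 501, 676 and 587 CPM against 617 to 650 CPM (adjusted p = 0.746). KRT18 was at 415, 475 and 464 CPM against 538 to 553 CPM (log2 fold-change -0.25 ± 0.159, adjusted p = 0.221). Without WT replicate 2 both of these passed the test as lower, KRT8 with -0.23 (adjusted p = 0.0164) and KRT18 with -0.33 (adjusted p = 0.000898).

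The mucosal pair was near or at 0 counts in MDA-MB-231 cells. KRT4 had 1 count in the 3 WT libraries together against 9166 in MI Ctrl, a ratio of CPM of 9681 with an exact 95% interval from 1737 to 382431. It had 0 counts in the libraries labelled SLUG KO, at least 3106-fold below MI Ctrl when 3 counts over the group are taken as the limit that a count of 0 allows. KRT13 had 7 counts in WT and 5 in the libraries labelled SLUG KO, against 59560 in MI Ctrl, ratios of 8987 (4361 to 22354) and 12111 (5189 to 37300). Of the 7 KRT13 counts in WT, 3 were outside replicate 2, as was the 1 count of KRT4. These intervals and limits cover counting error only.

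All 13 DEGs among the 14 other keratins tested in this comparison were lower in WT, and 11 of them had under 10 counts in every WT library, so that they too passed the filter through MI Ctrl alone. Of the other intermediate filament genes 7 were tested and all 7 were higher DEGs, VIM among them (log2 fold-change 8.83). Of the 16 epithelial transcription factors 13 were lower DEGs, including GRHL2 (-10.56) and FOXA1 (-10.48), and SOX9 was the 1 higher DEG (1.70). FOXA1 lay under 1 CPM in every WT library and passed the filter through MI Ctrl alone, so it had to differ. GRHL2, with a fold-change as large, carries the same limit. How many of the other filament and transcription factor genes called here do was not counted. Among the linkers plectin, PLEC (2.95), and dystonin, DST (2.20), were higher, and FAM83H (-3.13), PKP3 (-2.96) and JUP (-2.76) lower.

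Loss of SLUG, a repressor of epithelial genes, was addressed by the libraries labelled SLUG KO against WT. The edgeR test found 0 DEGs among the 7 members tested, where 1.25% of 17428 genes were higher and 1.8% lower DEGs, and 0 passed by adjusted p alone, against 1.45% and 1.89%. DESeq2 also gave 0 on both counts, and KRT7 and KRT81 had an unadjusted p under 0.05 in edgeR, for which no share of all genes was computed. KRT4 and KRT13 were too low to test. The median log2 fold-change was 0.07 over the 7 and -0.05 over all genes. Groups did not overlap for 19.8% of all genes detected.

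These values rest on WT replicate 2. KRT7 had 480, 448 and 451 CPM in the libraries labelled SLUG KO and 261, 393 and 287 CPM in WT, a log2 fold-change of 0.49 ± 0.209 (adjusted p = 0.261). Without replicate 2 it was 0.72 ± 0.0903 (adjusted p = 1.88e-05). KRT80 had 141, 135 and 135 CPM against 74, 195 and 79.3 CPM, a log2 fold-change of 0.17 ± 0.386 (adjusted p = 0.832) that became 0.81 ± 0.0854 without replicate 2 (adjusted p = 3.08e-06). For KRT80 replicate 2 lay above and the other 2 WT libraries below all 3 libraries labelled SLUG KO.

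KRT81 had 6.3, 7.88 and 7.82 CPM against 9.66, 12.7 and 11.5 CPM in WT, with no overlap (log2 fold-change -0.67 ± 0.209, adjusted p = 0.146). It passed without replicate 2 (-0.55 ± 0.15, adjusted p = 0.0105) and when all 18 libraries of the same batch were fitted together (adjusted p = 0.000995), a fit that also called KRT7 (adjusted p = 0.0118). KRT19 had 374, 262 and 318 CPM against 254, 484 and 275 CPM, and its log2 fold-change of -0.15 (adjusted p = 0.804) turned to 0.24 without replicate 2 (adjusted p = 0.129). KRT8 and KRT18 overlapped between the groups (log2 fold-change 0.07 for each, adjusted p = 0.856 and 0.842), as did KRT86 (0.40, adjusted p = 0.486). Without replicate 2 these were 0.21, 0.14 and 0.35, none past the test. The share of counts on mitochondrial genes ran from 0.656% to 2.4% over the WT libraries, and its part in the keratin values was not tested. Of 11 linkers tested DSP was a lower DEG (log2 fold-change -1.61).

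**Figure D4:**
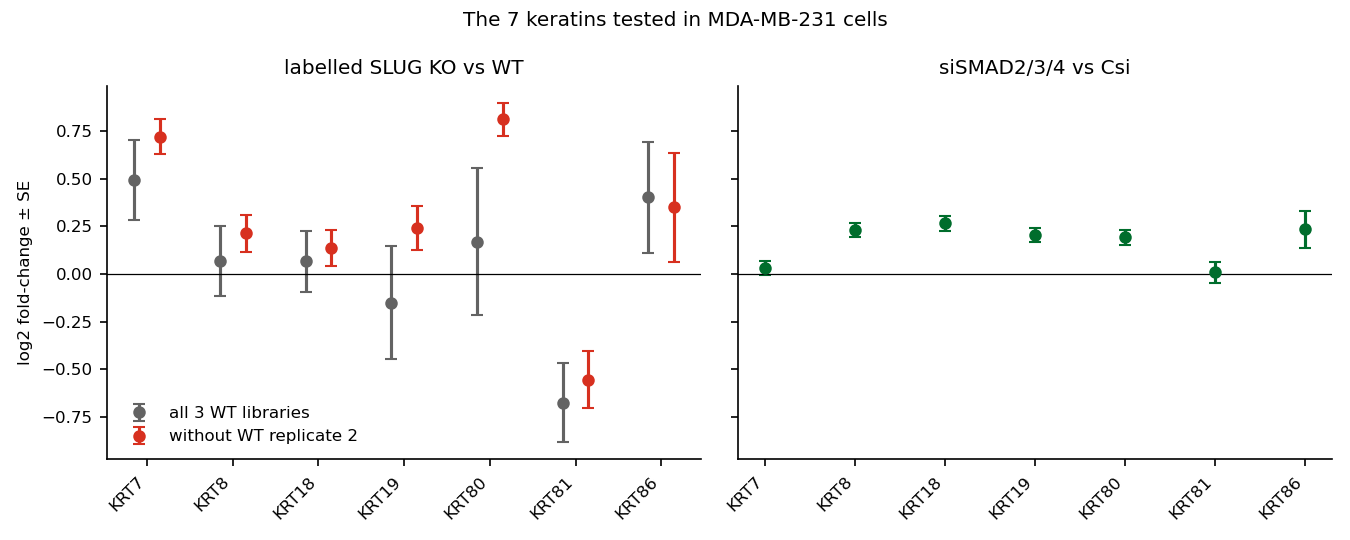
Log2 fold-changes of the 7 keratins tested in MDA-MB-231 cells; points are edgeR estimates and error bars SEs. Left, libraries labelled SLUG KO against WT with all 3 WT libraries (grey) or without WT replicate 2 (red), where KRT80 moves from 0.17 to 0.81; right, siSMAD2/3/4 against Csi, where KRT8, KRT18, KRT19 and KRT80 lie between 0.19 and 0.27.

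Knockdown of SMAD2, SMAD3 and SMAD4, the transcription factors of the TGFβ pathway, was compared with control siRNA to ask which genes depend on them, and the differences among the keratins were small. The edgeR test found 0 DEGs among 7 members tested, where 0.978% of 17696 genes were higher and 0.927% lower DEGs, and DESeq2 also gave 0. In edgeR 5 members had an unadjusted p under 0.05, for which no share of all genes was computed. By adjusted p alone KRT8, KRT18, KRT19 and KRT80 rose and 0 fell, against 16.3% of all genes rising and 19.7% falling. Groups did not overlap for 25.4% of all genes detected. KRT8 went from 945, 1005 and 1008 CPM to 1184, 1131 and 1144 CPM (log2 fold-change 0.23 ± 0.037, adjusted p = 8.11e-06). KRT18 went from 407, 407 and 411 CPM to 488, 503 and 479 CPM (log2 fold-change 0.27 ± 0.0375, adjusted p = 9.22e-07). The 2 partners thus rose by similar amounts, with no overlap between the groups. The labels give the 6 libraries 1 batch, but the deposited files name 1 flow cell for the 3 Csi libraries and 1 siSMAD2/3/4 library and another for the other 2, so flow cell and knockdown are partly confounded.

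KRT19 went from 491, 509 and 509 CPM to 589, 576 and 572 CPM (log2 fold-change 0.21 ± 0.0365, adjusted p = 3.1e-05). KRT80 went from 298, 319 and 326 CPM to 355, 368 and 353 CPM (log2 fold-change 0.19 ± 0.0389, adjusted p = 0.000169). With the flow cell as a term in the edgeR fit the rises were 0.22 for KRT8, 0.24 for KRT18, 0.19 for KRT19 and 0.17 for KRT80, and the highest of the 4 adjusted p-values was 0.0142. KRT7 (adjusted p = 0.533) and KRT81 (adjusted p = 0.924) overlapped between the groups. KRT86 did not overlap, with 8.13 to 10.1 CPM in Csi and 10.3 to 10.9 CPM after knockdown (log2 fold-change 0.23 ± 0.0993, adjusted p = 0.0657). KRT4 had 5 counts in Csi and 19 in siSMAD2/3/4, and KRT13 had 2 and 20, which without a filter on low counts made KRT13 a DEG (adjusted p = 0.0396). The share of counts on mitochondrial genes lay between 3.81% and 4.95% in Csi and between 4.87% and 6.02% after knockdown, and its part in these small rises was not tested.

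Across all 8 groups the order of levels differed between the genes. Csi and siSMAD2/3/4 were transfected and are of another label batch than the other groups. Transfection and batch cannot be told apart in their places in these orders. KRT7 was highest in MI Ctrl (2222 ± 41.4 CPM) and lowest in WT (314 ± 70.1 CPM, and 274 CPM without WT replicate 2). MII TGFβ and MII Ctrl, as well as siSMAD2/3/4, SLUG KO and Csi, overlapped with their neighbours in that order. KRT8 was highest in MII TGFβ (1827 ± 67.6 CPM), with SLUG KO, MI Ctrl and WT overlapping at the low end (642, 631 and 588 CPM). Without WT replicate 2 the WT mean of KRT8 was 544 CPM. KRT18 was highest in MII TGFβ (921 ± 28.5 CPM) and lowest in Csi (409 ± 1.95 CPM). KRT19 and KRT80 were highest in siSMAD2/3/4 (579 ± 8.73 and 359 ± 7.99 CPM), with Csi next (503 ± 10.3 and 314 ± 14.3 CPM), and lowest in MI-spheres. KRT81 was highest in MI Ctrl (2232 ± 70.7 CPM) and fell through MI TGFβ, MII Ctrl and MII TGFβ to the MDA-MB-231 groups, where siSMAD2/3/4 and Csi overlapped and SLUG KO was lowest (7.34 ± 0.894 CPM).

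Over the 18 libraries of the same batch, KRT8 and KRT18 followed each other most closely (Pearson r of log2 CPM 0.976), and KRT19 and KRT81 were the most opposed (-0.992). These values describe libraries that share their group, mainly the line. The protein-coding genes with the most similar patterns were SPRR3, CYP4F3 and HRK for KRT81, MAB21L4, CPT2 and S100A9 for KRT13, and CGN, CHMP1B and TRPM4 for KRT7. For KRT19 they were HPCAL1, MYLK and VCL, and for KRT80 LATS2, TBL1X and KANK2. For KRT8 they were SUSD4, TRIM68 and SHMT1, and for KRT18 PPM1H, DMBT1 and CRIP2. For KRT4 they were SIRPB2, PGLYRP4 and S100A7, and for KRT86 SLC22A5, B4GALT5 and TLCD1.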

How the data were processed

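Trimming with Trimmomatic, alignment to GRCh38.p13 with STAR and counting of read pairs per gene by featureCounts (Subread 2.0.0) were done by the authors, per the submitters' processing notes; other tool versions are not given in the sources used here. Per the file headers, counting used GENCODE 38 exons, a mapping quality of at least 30, both mates mapped and no strand, and the deposited values are raw counts in 24 tables, 1 per library. The labels give 50-base paired reads and the study's methods a longer length. Names came from GENCODE 44 for 99.6% of gene identifiers. The 16 ATAC-seq samples were not analysed here. Groups follow the labels.

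Counts were fitted per comparison over all genes with edgeR 4.0.16 (R 4.3.3; filterByExpr, TMM, glmQLFit, glmQLFTest, Benjamini-Hochberg), without covariates; the SE is the absolute log2 fold-change over the root of F. DESeq2 1.42.0, other filters and scalings, KRT81 and KRT86 summed, a replicate block and leaving out each library were alternatives. Levels are CPM with TMM factors over the 24 libraries. The fit was tested on simulated data with the same dispersion for every gene and changes only in well-counted genes. For TGFβ in MI-spheres it called 50 of 50 genes as DEGs at each simulated log2 fold-change of -1.8, -1.5, 1.5 and 1.8, and 1 of 16694 unchanged genes. For the interaction it called 49 of 50 at -1.5, 50 of 50 at the others and 4 of 17715 unchanged genes. Fold-changes near the DEG limit, low counts and the wider spread of WT were not simulated. Shared replicate numbers did not pair the libraries. Named genes are the 9 keratins, the targeted genes and, of each background list, at most 3 DEGs per direction with a mean of at least 1 CPM. COL1A1 and VIM in WT replicate 2, and the mitochondrial share of the WT libraries, were picked after their values were seen. Members and lists were chosen with earlier results of these data known. The 18 libraries of the spheres, WT and SLUG KO share 1 label batch and the 6 siRNA libraries another, although the files of the latter name 2 flow cells. Precision rests on 14124688 to 38406952 counts per library. Intervals cover counting error only.

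Markers were checked for fibroblasts (49.6 to 99.8 CPM summed in WT, 3.97 to 39.1 CPM in spheres), luminal cells (1482 to 3102 CPM in spheres with KRT8 and KRT18 in the list, PGR under 1 CPM in MI-spheres) and immune cells (at most 0.516 CPM in WT and 0.385 CPM in spheres).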

Additional observations from a re-analysis of the deposited data

Results flagged for a closer look

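The response to TGFβ differed between MI- and MII-spheres for 4 of the 9 keratins by the interaction test of edgeR over the 12 sphere libraries, with Benjamini-Hochberg adjustment over all genes. The difference in log2 fold-change, MII minus MI, was 0.51 for KRT7, 0.84 for KRT80, 0.67 for KRT81 and 1.14 for KRT86. These 4 of 9 stand beside 12.6% of all genes with a higher and 9.75% with a lower response in MII by adjusted p. The KRT86 difference was 0.87 without MI TGFβ replicate 2 and 0.96 without MII TGFβ replicate 3, and with KRT81 and KRT86 summed no separate KRT86 value exists and the count of DEGs was 0. For each of the 4 genes all 3 stimulated MI libraries lay below all 3 MI controls. These MI groups did not overlap, in either direction, for 29.6% of all genes detected. No group holds more than 3 libraries, so single libraries were not tested as outliers.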

How the results depend on the processing

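Of 1010 values under alternatives, 967 were labelled the same. For fold-changes this means the same direction and side of the adjusted p threshold, and for counts of DEGs a value within 1.5 times. The fold required of a DEG was not part of this label for single genes. The 967 therefore include values of KRT80 and KRT86 that lost the DEG call when 1 library was left out. The count of DEGs among the 9 keratins changed at all in 11 cases. For the interaction of line and TGFβ the count of 1 became 0 with KRT81 and KRT86 summed and ranged from 0 to 1 when 1 library was left out. For siSMAD2/3/4 the count of 0 became 1 with no low-count filter. For TGFβ in MI-spheres the count of 3 became 2 with KRT81 and KRT86 summed, without MI Ctrl replicate 2 or without MI TGFβ replicate 3, where KRT80 was lost. With 10 counts needed in each library the counts went from 6 to 5 and from 5 to 4 between the lines without and with TGFβ, where KRT4 was not tested, and from 7 to 5 for WT against MI Ctrl, where neither KRT4 nor KRT13 was. That last count became 6 with KRT81 and KRT86 summed. With the replicate number as a block the counts were 3 for TGFβ in MI, 0 in MII, 6 and 5 between the lines without and with TGFβ, 1 for the interaction, 0 in both MDA-MB-231 comparisons and 7 for WT against MI Ctrl, and the block changed no call. Libraries with the same number shared only that number (correlations of their deviations from -0.185 to 0.0656). Signs changed only for log2 fold-changes that had not passed the test, and the cause was not tested. KRT18 in MI with TGFβ was -0.00149 when genes needed 10 counts in each library. KRT7 in MII with TGFβ was 0.0304 with no filter and 0.0273 with all 12 sphere libraries in 1 fit. KRT81 in siSMAD2/3/4 was -0.0733 with the flow cell as a term. With 1 library left out, KRT7 in MII ranged from -0.0238 to 0.0216, the interaction of KRT18 from -0.0262 to 0.0636 and of KRT19 from -0.0664 to 0.223, and KRT81 in siSMAD2/3/4 from -0.0366 to 0.0611. For SLUG KO against WT, KRT8 ranged from -0.0162 to 0.214, KRT80 from -0.051 to 0.813 and KRT19 from -0.301 to 0.241, and KRT8 in WT against MI Ctrl ranged from -0.234 to 0.0147. Without the length term the log2 ratio of KRT8 to KRT18 averaged 0.209 in MI Ctrl, 0.502 in MI TGFβ, 0.671 in MII Ctrl, 0.988 in MII TGFβ, 0.373 in WT, 0.385 in SLUG KO, 1.27 in Csi and 1.23 in siSMAD2/3/4. Depth limits KRT4 and KRT13 in MDA-MB-231 cells and KRT4 in MII-spheres.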

Other observations

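The Csi and WT groups are both MDA-MB-231 control cells, and they differ in transfection and in label batch, which cannot be told apart. KRT81 averaged 59.2 ± 5 CPM in Csi and 11.3 ± 1.52 CPM in WT (SD, n = 3 each). KRT86 averaged 9.04 ± 0.972 and 1.7 ± 0.375 CPM, KRT80 314 ± 14.3 and 116 ± 68.5 CPM, KRT19 503 ± 10.3 and 338 ± 128 CPM, and KRT8 986 ± 35.6 and 588 ± 87.3 CPM. KRT18 averaged 409 ± 1.95 CPM in Csi and 451 ± 31.6 CPM in WT. Without WT replicate 2 the WT means were 10.6 CPM for KRT81, 1.8 for KRT86, 76.6 for KRT80, 264 for KRT19, 544 for KRT8 and 439 for KRT18. No test was run between these groups.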
